A study of Homo sapiens with 3 samples.

Results

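Levels of the mRNAs for USP16 and 8 other deubiquitinases of histones H2A and H2B were examined in libraries labelled HGC-27. HGC-27 is a human cell line established from a gastric cancer. The 9 genes (USP16, BAP1, MYSM1, USP21, USP3, USP22, USP12, USP46 and USP44) were chosen as known histone deubiquitinases and matched by symbol, and all 9 were found among the 58735 genes of the deposited table. Of these, 8 averaged 1 FPKM or more (fragments per kilobase of gene length, scaled to library size) over the libraries, and USP44 did not. There were 3 libraries: 1 titled shControl, whose genotype label reads WT, and 2 titled shUSP16-1 and shUSP16-2, whose genotype label reads shUSP16. A short hairpin RNA (shRNA) against USP16 is meant to lower its mRNA, and the comparison asks how these genes stand when USP16 is targeted. The labels do not give the hairpin sequences, and they leave unsaid if the numbers stand for separate hairpins or for repeats of one. Nothing states that cultures were separate, so the spread behind each p-value may be technical. All 3 libraries have the same culture text (medium with serum) and a protocol text that lists dexamethasone, isobutylmethylxanthine and insulin. Whether the cells received those agents is unclear.

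Ubiquitin is attached singly to histone H2A at K119, mainly by Polycomb repressive complex ligases, and to histone H2B at K120, mainly by the RNF20 and RNF40 ligase during transcription. Deubiquitinases remove it again. USP16, BAP1, MYSM1, USP21 and USP3 are best known for acting on H2A, USP22 and USP44 on H2B, and USP12 and USP46 on both. USP16 is known for a part in entry into mitosis and in reversing Polycomb silencing.

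The recovered reads came to between 29530581 and 31187845 per library. The labelled cell type was compared with markers, and those of epithelium and gastric mucosa did not bear out a gastric epithelial identity. None of these reached 1 FPKM in any library, while fibroblast markers did. Why the markers and the label differ was not tested. All 5 fibroblast markers (COL1A1, COL1A2, DCN, PDGFRA and LUM) were at 1 FPKM or more in every library, and their summed level was 104 FPKM in shControl, 114 in shUSP16-1 and 145 in shUSP16-2. Of 5 mesenchymal markers 3 (VIM, SPARC and ZEB1) reached 1 FPKM in every library, VIM at 155 FPKM or more. The others did not. FN1 was at 0.605 FPKM in shControl, 0.957 in shUSP16-1 and 1.05 in shUSP16-2, and CDH2 at 0.0621, 0.0135 and 0.0521. None of 5 epithelial markers (KRT8, KRT18, KRT19, EPCAM and CDH1) and none of 5 gastric mucosa markers reached 1 FPKM in every library, with sums of 0.206 to 0.718 and 0.0556 to 0.0842 FPKM. Leukocyte, endothelial and adipocyte markers summed to at most 0.316 FPKM in any library. The part of the fibroblast marker levels in the results below was not tested.

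Promoter windows of 6 of the 9 genes were matched in RefSeq on GRCh38.p14, each covering 250 bases before to 50 bases after a gene start. BAP1, MYSM1 and USP44 had no entry. Those of USP16 and USP46 are shown, USP16 as the targeted gene and USP46 because USP46-AS1, a gene on the other strand, begins inside its window. The window of USP21 also holds such a start, that of AL590714.1. The capitals mark 2 motifs searched on both strands, CCGGAAG (bound by ETS factors) and GGGCGG (bound by SP1 and related factors).
USP16, chr21:29024418-29024717, plus strand: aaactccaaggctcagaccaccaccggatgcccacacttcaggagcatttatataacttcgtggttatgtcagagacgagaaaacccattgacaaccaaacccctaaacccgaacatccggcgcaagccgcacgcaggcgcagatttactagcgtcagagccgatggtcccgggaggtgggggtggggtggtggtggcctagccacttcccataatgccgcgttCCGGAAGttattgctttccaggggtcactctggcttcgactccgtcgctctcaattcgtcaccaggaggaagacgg
USP46, chr4:52659252-52659551, minus strand: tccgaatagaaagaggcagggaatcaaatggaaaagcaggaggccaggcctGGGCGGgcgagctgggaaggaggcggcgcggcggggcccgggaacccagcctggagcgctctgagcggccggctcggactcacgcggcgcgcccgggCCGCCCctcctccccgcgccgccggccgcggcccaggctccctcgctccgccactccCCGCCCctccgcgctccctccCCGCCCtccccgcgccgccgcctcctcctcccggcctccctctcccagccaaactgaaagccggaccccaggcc
CCGGAAG was in 2 of the 6 windows, those of USP16 and USP3, and in 10.3% of the 35116 windows of all genes. GGGCGG was in 5 of the 6, all but that of USP16, and in 45.0% of all windows. The USP16 window had the lowest GC content of the 6 at 56.3%, where all windows had a median of 58.7%, and the USP12 window had the highest at 84.3%. None of the 6 windows held CCAAT, which 34.6% of all windows did. The E-box CACGTG (7.26% of all windows) and the AP-1 motif TGACTCA (4.95%) were also in none of them. GCCATNTT, found in 6.58% of all windows, was in that of USP21 alone among the 6. No matches overlap in the windows shown, and a match describes the letters of the window.

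USP12 and USP46 are close copies of each other, so their longest shared coding stretch is shown as a check on whether their reads could be confused. In GENCODE 29 their coding sequences were identical at 845 of 1095 aligned positions (77.2%). The longest run without a mismatch had 20 bases, at positions 517 to 536 of the USP12 coding sequence and 505 to 524 of that of USP46. It is in capitals with 20 bases on each side.
USP12: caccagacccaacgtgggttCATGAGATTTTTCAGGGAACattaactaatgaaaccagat
USP46: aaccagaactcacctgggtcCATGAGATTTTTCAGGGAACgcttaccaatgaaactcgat
No window of 50 bases in any transcript of one was found in the other. USP12 shared 5.97% of its 50-base windows with other genes on the same strand, among them its pseudogene USP12PX, which had 0 reads in each library, and AC010306.1, which had 16, 13 and 13. For the other 8 genes that share was at most 1.28%, that of USP22. Counted on either strand it was 17.7% for USP3, 12.3% for USP22, 5.97% for USP12 and at most 1.72% for the others.

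USP16 mRNA was lowest in shUSP16-1, while shUSP16-2 was close to shControl. USP16 lies on the plus strand of chromosome 21, from 29024629 to 29054488 on GRCh38 (ENSG00000156256). Its level was 6.28 FPKM in shControl (1165 reads), 4.29 in shUSP16-1 (730 reads) and 5.98 in shUSP16-2 (1056 reads). USP16 was thus lower than shControl in both libraries labelled shUSP16, by unequal amounts. Relative to shControl, shUSP16-1 was at 0.683, with an exact binomial 95% interval of 0.621 to 0.749, and shUSP16-2 at 0.952, with one of 0.875 to 1.04. With totals taken as sums of reads in place of those the authors' FPKM imply, the ratios were 0.639 (0.582 to 0.702) and 0.876 (0.805 to 0.953). These intervals, here and below, cover counting error alone. Of the 13852 genes that averaged 1 FPKM or more, 8.14% had a ratio as low or lower in shUSP16-1 and 36.2% in shUSP16-2. The mean of the libraries labelled shUSP16 was 5.14 ± 1.20 FPKM (SD, n = 2), and limma on log2(FPKM + 1) gave a difference of -0.26 (SE 0.20, adjusted p = 0.564). For the library labelled shUSP16-2 the interval held 1 under the authors' totals and lay below 1 under sums of reads, so each direction below rests on the labels. In RNA from whole cultures, fewer cells with USP16 mRNA and less of it per cell cannot be told apart.

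**Figure D1:**
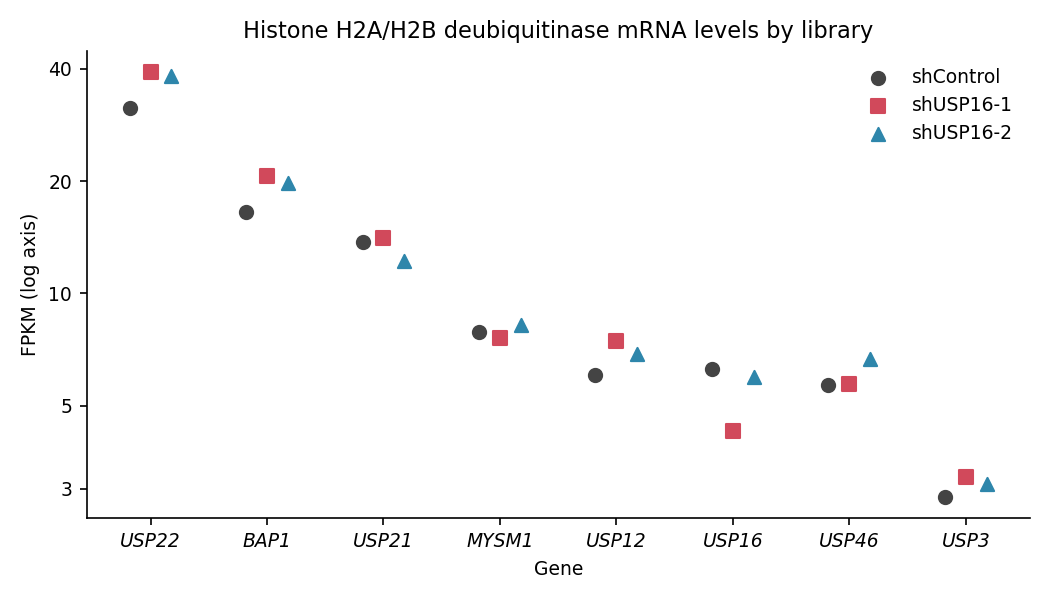
FPKM (log axis) of the 8 genes that averaged 1 FPKM or more, 1 point per library; USP44 is left out because it was listed at 0 in shControl. USP16 is lowest in shUSP16-1 at 4.29 FPKM, while USP22 and BAP1 have their lowest point in shControl.

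The other H2A deubiquitinases showed no shared direction. BAP1, the catalytic subunit of the Polycomb repressive deubiquitinase complex and a tumour suppressor (ENSG00000163930, chromosome 3, 52401013 to 52410350, minus strand), had 16.5 FPKM in shControl, 20.7 in shUSP16-1 and 19.8 in shUSP16-2. BAP1 was higher in both libraries labelled shUSP16 than in shControl, as were 44.9% of the 13852 genes with the deposited scaling. Its ratios were 1.26 (1.19 to 1.32) and 1.20 (1.14 to 1.26), and 14.8% and 25.6% of the 13852 genes had ratios as high or higher. MYSM1, a JAMM-type metalloprotease for ubiquitinated H2A needed in blood cell formation (ENSG00000162601, chromosome 1, 58654739 to 58700092, minus strand), had 7.89 FPKM in shControl, 7.60 in shUSP16-1 and 8.24 in shUSP16-2. Its shControl value lay between the other 2, and both ratios, 0.963 (0.907 to 1.02) and 1.04 (0.985 to 1.11), had intervals that held 1. With sums of reads the ratio in shUSP16-1 was 0.902, with an interval of 0.849 to 0.958 that lay below 1.

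USP21, which acts on H2A and on several signalling proteins (ENSG00000143258, chromosome 1, 161159450 to 161165723, plus strand), had 13.7 FPKM in shControl, 14.0 in shUSP16-1 and 12.2 in shUSP16-2. It was lowest in shUSP16-2, with a ratio of 0.891 (0.830 to 0.957) there and 1.02 (0.953 to 1.09) in shUSP16-1, so the libraries labelled shUSP16 lay on either side of shControl. USP3, a deubiquitinase of H2A and H2B studied in the DNA damage response (ENSG00000140455, chromosome 15, 63504511 to 63594640, plus strand), had the lowest level of the 8 genes. Its values were 2.86 FPKM in shControl, 3.22 in shUSP16-1 and 3.09 in shUSP16-2, with ratios of 1.13 (1.02 to 1.25) and 1.08 (0.974 to 1.20). USP3 was higher in both with the deposited scaling, and on either side of shControl with sums of reads, at 1.06 and 0.994.

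Among the enzymes best known for H2B, or for both histones, USP22 was the highest member and USP44 was hardly detected. USP22, the enzyme of the SAGA coactivator complex (ENSG00000124422, chromosome 17, 20999593 to 21043760, minus strand), had 31.3 FPKM in shControl, 39.2 in shUSP16-1 and 38.2 in shUSP16-2. Both libraries labelled shUSP16 were higher than shControl and close to each other, with ratios of 1.25 (1.21 to 1.29) and 1.22 (1.18 to 1.26). Ratios as high or higher were found for 15.3% and 22.8% of the 13852 genes. USP12 (ENSG00000152484, chromosome 13, 27066142 to 27171896, minus strand), which is active in a complex with WDR48, had 6.04 FPKM in shControl, 7.45 in shUSP16-1 and 6.90 in shUSP16-2, with ratios of 1.23 (1.13 to 1.34) and 1.14 (1.05 to 1.25). It too was lowest in shControl. In shUSP16-2 the ratio with sums of reads was 1.05, and its interval of 0.965 to 1.15 held 1.

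USP46, its close copy with the same partner (ENSG00000109189, chromosome 4, 52590972 to 52659335, minus strand), had 5.69 FPKM in shControl, 5.71 in shUSP16-1 and 6.69 in shUSP16-2. This last library was the high one, with a ratio of 1.18 (1.10 to 1.26), while shUSP16-1 was at 1.00 (0.936 to 1.08). USP44, an H2B deubiquitinase known for a part in the mitotic checkpoint (ENSG00000136014, chromosome 12, 95516560 to 95551490, minus strand), was read 0 times in shControl, 9 times in shUSP16-1 and 2 times in shUSP16-2. The 3 reads that a count of 0 allows correspond to 0.0171 FPKM in shControl, and shUSP16-1 stood at 0.0559 FPKM from 9 reads. In shUSP16-1 the exact binomial 95% interval of the USP44 ratio to shControl began at 2.15, and at 2.01 with sums of reads. In shUSP16-2 it began at 0.197, and at 0.181 with sums of reads, and so held 1. USP44 was too low to enter the test.

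**Figure D2:**
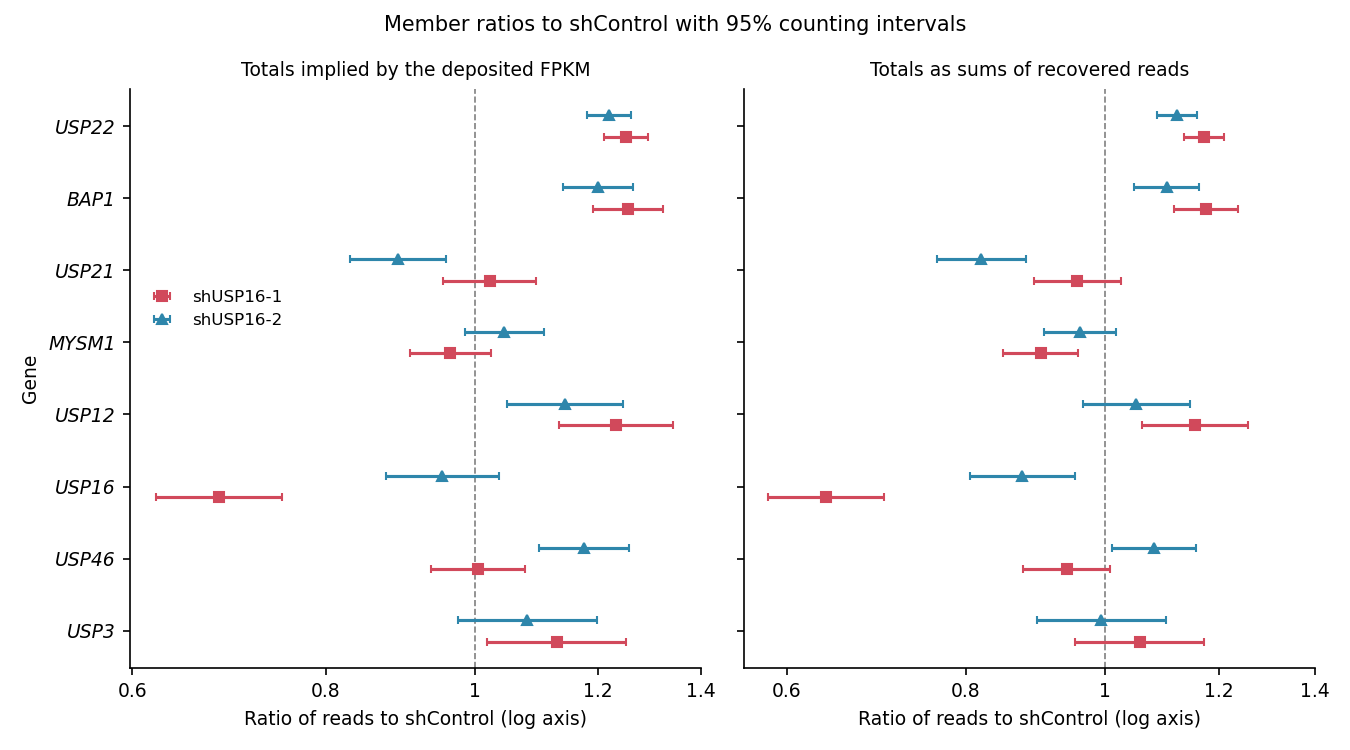
Ratio of reads to shControl (log axis) for 8 genes in shUSP16-1 and shUSP16-2, with exact binomial 95% intervals, under totals implied by the deposited FPKM (left) and sums of reads (right). USP16 in shUSP16-1 lies at 0.683 and 0.639, below the others, while USP22 and BAP1 lie above 1 in both panels.

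None of the 8 tested members passed limma with a variance trend and Benjamini-Hochberg adjustment at 0.05, where 0% of the 13852 genes passed. Over all genes 2008 had an unadjusted p under 0.05 (14.5%), and of the members USP22 did. USP22 differed by 0.30 (SE 0.11, adjusted p = 0.341) and BAP1 by 0.28 (SE 0.12, adjusted p = 0.364) in limma. The adjusted p was 0.468 for USP12 and between 0.755 and 0.991 for USP3, USP46, USP21 and MYSM1. limma voom on the recovered reads called 348 genes (2.51%) with the authors' totals and 557 (4.02%) with sums of reads, and no member was among them. limma among protein-coding genes alone called 48 (0.434%), and limma among genes that averaged 5 FPKM or more called 13 (0.170%), again with no member. Over these fits and those with another pseudocount, filter, scaling or trend, 10 in all, the lowest adjusted p in limma was 0.200 for USP22 and 0.202 for USP16. With 1 control library the spread rests on the 2 libraries labelled shUSP16, and an exact permutation test of 1 library against 2 cannot go below a two-sided p of 0.333.

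With the deposited scaling 5 of the 8 members (BAP1, USP12, USP22, USP3 and USP46) were higher than shControl in both libraries, as were 44.9% of all tested genes. USP16 was the 1 member lower in both, where 32.4% of all genes were. Scaled to equal totals, 3 members were higher in both (BAP1, USP12 and USP22), beside 31.3% of all genes, and 3 were lower in both (USP16, USP21 and MYSM1), beside 45.4%. Scaled by the median ratio, 4 were higher and 2 lower in both, beside 37.9% and 38.5% of all genes. BAP1, USP12 and USP22 kept their direction under these 3 scalings, as did USP16. Counting intervals lay above 1 for 4 members in shUSP16-1, where they did for 36.9% of all genes, and for 4 in shUSP16-2, where they did for 38.7%. They lay below 1 for 1 member in each, USP16 in shUSP16-1 and USP21 in shUSP16-2, beside 23.3% and 25.2% of all genes. With sums of reads they lay above 1 for 3 in shUSP16-1 (BAP1, USP12 and USP22) and 3 in shUSP16-2 (BAP1, USP22 and USP46), beside 25% and 26% of all genes. They lay below 1 for 2 in each, MYSM1 and USP16 in shUSP16-1 and USP16 and USP21 in shUSP16-2, beside 34.4% and 38.2%. The median limma difference was 0.11 over the 8 members and 0.04 over all genes tested.

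The order of the levels, compared per gene length, was the same in every library for the 4 most abundant genes. USP22, BAP1, USP21 and MYSM1 followed each other with ranges over the 3 libraries that did not overlap. The ranges of USP12 (6.04 to 7.45 FPKM), USP16 (4.29 to 6.28) and USP46 (5.69 to 6.69) overlapped with their neighbours. Within each library USP12 was above USP46, while the place of USP16 among these 3 changed. USP16 held place 5 of the 9 in shControl and place 7 in both libraries labelled shUSP16. USP3 followed, and USP44 was last throughout. Among the 13852 genes USP22 exceeded 92.4% of levels in shControl and USP16 exceeded 53.1%, and in shUSP16-1 USP16 exceeded 40.1%.

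As a share of the summed FPKM of the 9 genes, USP16 was 6.96% in shControl, 4.20% in shUSP16-1 and 5.92% in shUSP16-2. This share, and the ratio to the other 8 genes given next, were added after the values had been seen. The share does not depend on how libraries are scaled. It was lower in both libraries labelled shUSP16. The sum itself was 90.3 FPKM in shControl, 102 in shUSP16-1 and 101 in shUSP16-2, and the 8 other genes together had 84.0, 97.9 and 95.1 FPKM. USP22 made up 34.7%, 38.3% and 37.8% of the sum, and BAP1 18.2%, 20.2% and 19.6%. Relative to the reads of the other 8 genes, USP16 was at 0.588 of shControl in shUSP16-1 (exact conditional 95% interval 0.534 to 0.647) and at 0.831 in shUSP16-2 (0.762 to 0.906). Both intervals lay below 1, with the higher USP22 and BAP1 levels in the denominator. How many of all genes would lie as low by this measure was not computed. Relative to library totals, 8.14% of the tested genes were as low as USP16 or lower in shUSP16-1 and 36.2% in shUSP16-2.

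**Figure D3:**
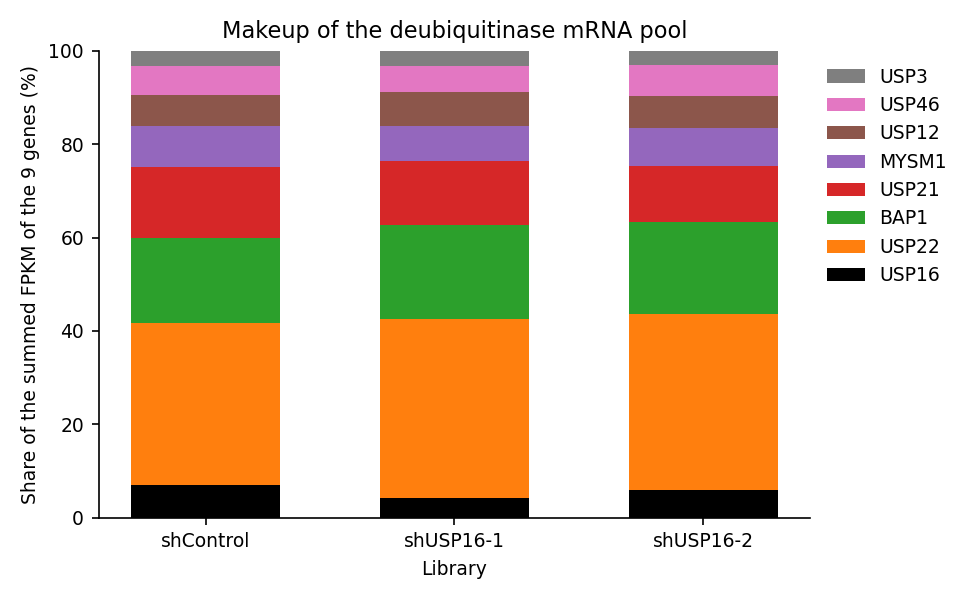
Stacked shares of the summed FPKM of the 9 genes (percent, from 0 to 100) in each library; USP44 is too low to be seen. The USP16 share, drawn in black, is 6.96% in shControl, 4.20% in shUSP16-1 and 5.92% in shUSP16-2.

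Both libraries labelled shUSP16 could also be compared with each other, without the control. USP16 in shUSP16-1 was at 0.717 of its level in shUSP16-2 (0.652 to 0.789), the lowest ratio of the 8 members, and 5.28% of the 13852 genes had a ratio as low or lower. With sums of reads it was 0.730 (0.663 to 0.803). USP46 was at 0.853 (0.797 to 0.914) and MYSM1 at 0.922 (0.868 to 0.980), so both were also lower in shUSP16-1, while USP21 was higher, at 1.15 (1.07 to 1.23). BAP1, USP22, USP12 and USP3 had ratios from 1.03 to 1.08 with intervals that held 1. With sums of reads the intervals of BAP1 (1.01 to 1.12), USP22 (1.01 to 1.08) and USP12 (1.01 to 1.19) lay above 1. Intervals lay below 1 for 3 of the 8 members and above 1 for 1, beside 27.2% and 22.8% of all genes. Under sums of reads they lay below 1 for the same 3 (USP16, USP46 and MYSM1) and above 1 for 4, beside 23.1% and 26.3%. The ratio compares these 2 libraries, not conditions.

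**Figure D4:**
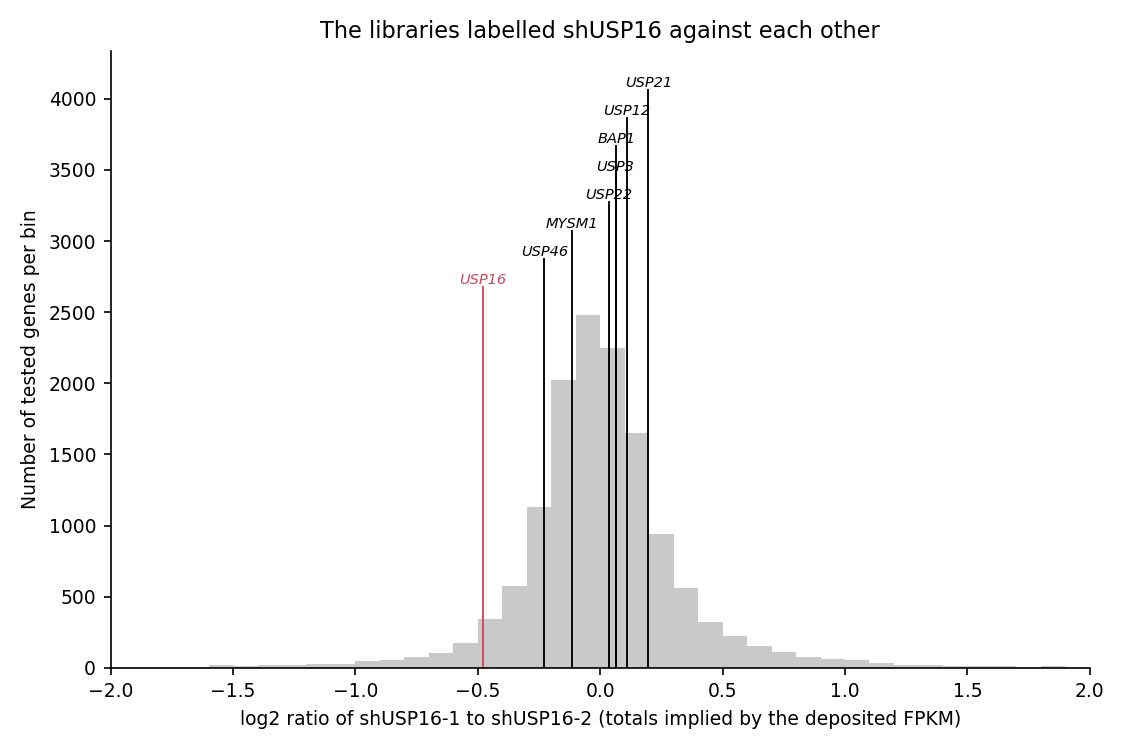
Number of tested genes per bin of the log2 ratio of shUSP16-1 to shUSP16-2, with lines at the 8 members; 97 of the 13808 genes with reads in both libraries lie outside the plotted range. USP16 (ratio 0.717) lies on the low side of the distribution and USP21 (1.15) is the highest member.

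Genes that attach, read or remove the same ubiquitin marks, or that partner the members, were described in 9 lists of 72 genes, of which 68 were tested. limma called 0 of the 68, limma voom called 0 under either total and limma among protein-coding genes called 0. With the deposited scaling 43 were higher in both libraries and 9 lower in both (63.2% and 13.2%, beside 44.9% and 32.4% of all genes). With equal totals the counts were 24 and 24 (35.3% each, beside 31.3% and 45.4% of all genes). More of these genes were thus higher than lower under one scaling, and equally many under the other. Under both scalings the share higher in both was above that of all genes, and the share lower in both was below it. What accounts for this was not tested.

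Partners of the members were first among these lists. HCFC1, a chromatin factor bound by BAP1, had the largest difference of the BAP1 partners, with 17.0 FPKM in shControl, 23.4 in shUSP16-1 and 23.3 in shUSP16-2 (limma 0.44, adjusted p = 0.287). Of the 9 tested BAP1 partners 6 were higher in both and 1 was lower in both, and with equal totals 2 were higher and 5 lower. FOXK1, a forkhead factor, was at 0.24 and MBD6, a methyl-CpG-binding-domain protein, at 0.15 on the log2 scale. The partners of USP22 in the SAGA deubiquitinase module were split. Of the 5 tested, ATXN7L3 (0.14) and ENY2 (0.18) were higher in both and ATXN7L1 (-0.28) and ATXN7L3B (-0.14) were lower in both, while ATXN7 itself was below 1 FPKM. With equal totals 2 of these 5 were higher and 3 lower. WDR48, which activates USP12 and USP46, had a log2 difference of 0.02, its partner WDR20 -0.04 and DMWD -0.19, none of them called.

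Other histone deubiquitinases were at log2 differences of -0.30 to 0.31. The shControl level of USP7 was 16.4 FPKM and its mean in the libraries labelled shUSP16 was 20.5 ± 0.488 FPKM (SD, n = 2). For BRCC3, the K63-specific enzyme of the BRCA1-A complex, these were 9.04 and 10.8 ± 1.85 FPKM, and for USP49, an H2B deubiquitinase, 2.71 and 2.01 ± 0.388 FPKM. Of 9 tested, 5 were higher in both and 1, USP49, was lower in both, and with equal totals 3 were higher and 3 lower. In the H2A K119 ligase core 7 of 11 were higher in both, with RING1 at 0.19 and PCGF6 at 0.23, and 1 was lower in both. With equal totals 3 were higher and 4 lower. The gene lower in both with the deposited scaling was PCGF3, a RING finger partner of the ligases, with 15.3 FPKM in shControl, 12.5 in shUSP16-1 and 11.9 in shUSP16-2 (limma -0.31, adjusted p = 0.345). The H2B ligase and its PAF1 transcription complex were higher in both for 9 of 11 and lower in both for 0, with a median of 0.14, and with equal totals for 5 and 3. PAF1 was at 0.31, RNF40 at 0.27 and LEO1 at 0.26.

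Of the other H2A ligases 6 of 10 were higher in both and 2 lower, and with equal totals 6 and 3. The differences were led by DDB1 (0.37) and CUL4A (0.36), subunits of a cullin ligase, and BRCA1 (0.27). Among readers of ubiquitinated H2A, DNAJC2 was at 0.35, JARID2 at 0.12 and RSF1 at 0.07. The 6 ubiquitin and activating enzyme genes were higher in both with the deposited scaling, and 2 of the 6 with equal totals. The activating enzyme UBA1 was at 0.28 and RPS27A, which encodes ubiquitin joined to a ribosomal protein, at 0.15 on the log2 scale.

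**Figure D5:**
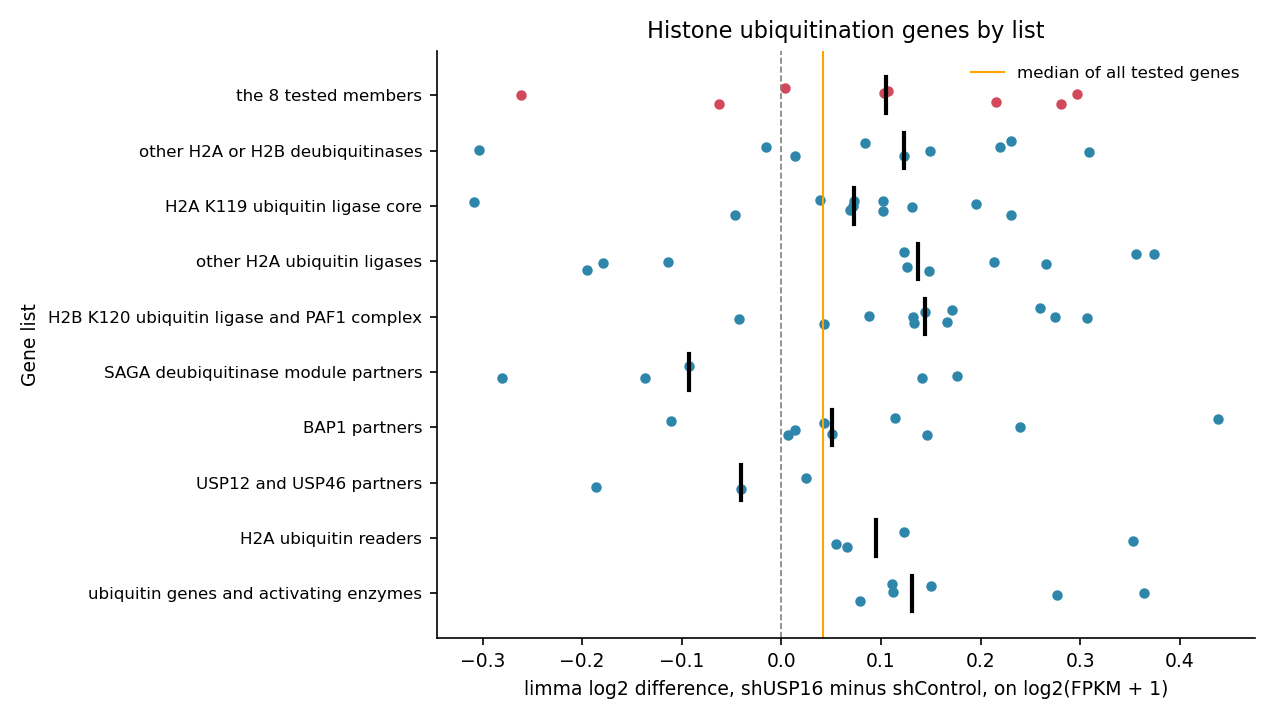
limma log2 difference (shUSP16 minus shControl) of each tested gene by list, with a black bar at the list median and an orange line at the median of all tested genes (0.04). No gene shown passed the test, and USP16 is the leftmost of the 8 tested members.

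The genomic surroundings of the members are described next. No source used here gives the strand setting of the counting, which matters for members that overlap another gene. A gene on the opposite strand began within 500 bases of the start of 6 of the 9 members, and of 25.0% of the 11069 tested protein-coding genes. This window was set after the distances of the members had been seen. For USP46 that gene was USP46-AS1, a long noncoding RNA whose start lies 71 bases from that of USP46. USP46-AS1 had 3.40 FPKM in shControl, 3.26 in shUSP16-1 and 2.31 in shUSP16-2, so it was lowest in the library where USP46 was highest (limma -0.23, adjusted p = 0.622). PHF7, which starts 307 bases from BAP1, had 2.98, 2.96 and 2.38 FPKM. USP46-AS1 and PHF7 do not overlap USP46 and BAP1, with gaps of 70 and 306 bases. Their values thus describe neighbours and are no measure of mixed reads.

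USP16 overlaps AF129075.2, an antisense gene, over 262 bases at its 5′ end, and that gene had 0 reads in all 3 libraries. Neither protein-coding neighbour of USP16 was lower than shControl in both libraries. RWDD2B, 5250 bases before it, had 9.65 FPKM in shControl, 9.60 in shUSP16-1 and 11.8 in shUSP16-2. CCT8, a chaperonin subunit gene that ends 1316 bases beyond the USP16 end on the other strand, had 86.4, 115 and 125 FPKM, and was higher in both libraries labelled shUSP16 (limma 0.47, adjusted p = 0.280). Without strand, reads of overlapping genes cannot be told apart. USP22 overlaps CCDC144NL-AS1, with 6.11, 4.83 and 4.50 FPKM, over 2684 bases at its 3′ end, and USP3 overlaps USP3-AS1, which had 52, 44 and 47 reads against the 722, 748 and 743 of USP3. USP12 overlaps USP12-AS1, with 4, 0 and 0 reads.

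The genes whose values were most like those of USP16 were sought among 5296 protein-coding genes within a 2-fold range of its mean FPKM. The measure was the distance between the pairs of log2(FPKM + 1) differences from shControl, over 3 libraries. The closest were PKIA, a protein kinase A inhibitor gene, at a distance of 0.00376, then TMEFF2 (0.0150), CAV1, encoding caveolin (0.0338), CA14, a carbonic anhydrase gene (0.0436), and HERPUD2 (0.0524). PKIA had 6.43 FPKM in shControl, 4.38 in shUSP16-1 and 6.13 in shUSP16-2. A distance of 0.1 or less was found for 20 genes. None of them was among the 4 members within the 2-fold range (MYSM1, USP46, USP3 and USP12). BAP1, USP22, USP21 and USP44 lay outside that range and were not searched. The nearest of the 4 was MYSM1, at 0.430 and in place 1540.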

How the data were processed

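RNA-seq of 3 libraries labelled HGC-27 was analysed from 1 deposited table of FPKM, per the file headers. In that table each library has a column named in its label. The sources used here do not give how reads were aligned and counted, their length, the strand setting or how RNA was selected. Builds named in the submitters' processing notes are GRCm38 and mm10, but all 58735 gene IDs, coordinates and lengths equal those of human GENCODE 29, so coordinates are on GRCh38. FPKM times the deposited gene length (union of exons) gave whole multiples of a step for 100% of values above 0 (tolerance 0.01 reads). The totals implied by the FPKM were 1.08, 1.01 and 0.994 times the sums of recovered reads in shControl, shUSP16-1 and shUSP16-2, so the authors' scaling lowers shControl relative to sums of reads.

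limma 3.58.1 in R 4.3.3 was fitted with a variance trend to log2(FPKM + 1) of the 13852 genes that averaged 1 FPKM or more, so that fold changes of low genes are understated, and p-values were adjusted over all of them. It was run on simulated data with changes larger than those of the members, to check that directions come out right. That run does not bear on calls for differences as small as theirs. Nor does it cover a control that varies more than the libraries labelled shUSP16. Ratios of reads carry exact binomial 95% intervals. The members, lists and tests were chosen with earlier results of these data known. Named genes were the members, up to 3 genes per list with the largest limma difference, overlapping genes, the protein-coding genes next to USP16 and the 5 closest in pattern; 1 gene that this rule names is not reported here. ATXN7L3B, ATXN7, USP46-AS1, AL590714.1 and PHF7 were named after their values were seen. Shared 50-base windows and coding sequences came from GENCODE 29 transcripts, promoters from RefSeq. Figures were drawn with matplotlib 3.10.9 in Python 3.11.15, and intervals computed with scipy 1.17.1.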

Additional observations from a re-analysis of the deposited data

How the results depend on the processing

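No paired analysis was possible because there is 1 control library for the 2 libraries labelled shUSP16, so the groups share fewer than 2 replicate numbers. The count of 0 genes called by limma became 13 among genes averaging 5 FPKM or more, 48 among protein-coding genes, 348 by voom with the authors' totals and 557 by voom with sums of reads, and stayed 0 under the other 5 settings, which were another pseudocount, no filter, 2 other scalings and no trend. USP16 was lower under each setting, from -0.26 to -0.41, with adjusted p from 0.202 to 0.747, and leaving out 1 library labelled shUSP16 (values with no test) gave -0.46 to -0.06. MYSM1, main value 0.004, turned to -0.092 with equal totals, -0.043 with the median ratio and -0.10 by voom with sums of reads, and ran from -0.048 to 0.056 on leaving out 1 library labelled shUSP16. USP21, main value -0.06, ran from -0.15 to 0.029 on leaving out 1. Members higher in both numbered 3 with equal totals. Members lower in both numbered 3 with equal totals and 2 with the median ratio. With sums of reads, ratios to shControl beyond the counting interval of the main value were 1.18 (BAP1), 0.902 (MYSM1) and 1.17 (USP22) in shUSP16-1, and 1.10 (BAP1), 0.961 (MYSM1), 0.820 (USP21), 1.12 (USP22) and 1.08 (USP46) in shUSP16-2. These shifts follow from the totals themselves. The cause of the other changes was not tested.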
